A study of Mus musculus with 24 samples.

Results

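The mouse HoxD cluster holds 9 genes, Hoxd1, Hoxd3, Hoxd4, Hoxd8, Hoxd9, Hoxd10, Hoxd11, Hoxd12 and Hoxd13, and all 9 were among the 19953 genes of the deposited table. They were taken by symbol, without use of measured values, and are ordered from the 3′ end of the cluster (Hoxd1) to its 5′ end (Hoxd13). PolyA RNA was sequenced from mouse embryonic stem cells in 8 groups of 3 libraries, 24 libraries in all. The double-KO group lacked both MLL1 and MLL2, the Mll2-KO group lacked MLL2, the Mll1-KO group lacked MLL1, and WT was the wild type, each at day 4 and at day 0. Day 4 cells had been differentiated for 4 days on gelatin in medium with 1 µM retinoic acid and 10% fetal bovine serum. Day 0 cells were undifferentiated, on gelatin with 15% serum and leukemia inhibitory factor. Per the labels' protocols, the mutants came from 1 line that carries a Cre-inducible Mll2 deletion: MLL1 was removed by CRISPR deletion, and the Mll2 deletion was induced by 800 nM 4-hydroxytamoxifen (4-OHT) for 48 h. No 4-OHT was given to WT or Mll1-KO cells, so in every comparison the absence of MLL2 and exposure to the drug cannot be told apart. The labels state neither how many clones each mutant stands for, nor whether WT carries the inducible allele, nor whether replicates were separate cultures, so each p-value measures the spread between these libraries only.

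Hox genes encode homeodomain transcription factors that give body segments and limbs their identity, and they are switched on in the order in which they lie, from the 3′ end to the 5′ end of a cluster. In embryonic stem cells the clusters are held silent by Polycomb repression, and retinoic acid, acting through nuclear retinoic acid receptors, opens them first at the 3′ end. MLL1 (encoded by Kmt2a) and MLL2 (encoded by Kmt2b) are related histone H3 lysine methyltransferases of the Trithorax group, the counterpart of Polycomb, and both carry a domain that binds unmethylated CpG dinucleotides.

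The 9 genes lie on the plus strand of chromosome 2 in mm10 (GRCm38), from Hoxd13 at chr2:74668310-74671599 to Hoxd1 at chr2:74762980-74765142 in the GENCODE annotation, and all are protein-coding. Between them lie Hoxd12 (chr2:74675013-74677705), Hoxd11 (chr2:74679557-74687016), Hoxd10 (chr2:74691924-74695105), Hoxd9 (chr2:74697727-74700208), Hoxd8 (chr2:74704615-74707933), Hoxd4 (chr2:74711929-74729160) and Hoxd3 (chr2:74711927-74748442). Hoxd3 and Hoxd4 share 388 exonic bases on the same strand, 9.26% of the Hoxd3 exons and 13.16% of the Hoxd4 exons. On that strand the annotation also places the protein-coding model Gm28230, which shares 2225 bases (53.09%) of the Hoxd3 exons and 1154 bases (39.15%) of the Hoxd4 exons and is not a row of the table used here. The assignment of reads to Hoxd3 and Hoxd4 is therefore uncertain in all comparisons. The antisense transcript Hoxd3os1 overlaps 347 exonic bases of them, and whether the counting used strand is not stated.

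Since both proteins bind CpG-rich DNA, the bases just upstream of the start sites were compared, and all 9 members matched an entry in RefSeq (GRCm38.p6). In the 250 bases upstream of each start, the members ranged from 2 CpGs at one of the Hoxd11 starts to 31 at Hoxd13, against a median of 6 over 32851 windows of all genes. The windows follow the RefSeq starts, which can differ from the GENCODE positions above. For Hoxd4 the RefSeq start is chr2:74721978, inside the GENCODE gene that starts at chr2:74711929. The share of all windows with at least as many CpGs was 5.2% for Hoxd13, 12.0% for Hoxd1, 50.4% for Hoxd8 and 71.0% for Hoxd4. Shown are 4 of these windows, those of the genes whose shares were just given, each 5′ to 3′ on the plus strand with CpG dinucleotides in capitals.
Hoxd1 (chr2:74762730-74762979): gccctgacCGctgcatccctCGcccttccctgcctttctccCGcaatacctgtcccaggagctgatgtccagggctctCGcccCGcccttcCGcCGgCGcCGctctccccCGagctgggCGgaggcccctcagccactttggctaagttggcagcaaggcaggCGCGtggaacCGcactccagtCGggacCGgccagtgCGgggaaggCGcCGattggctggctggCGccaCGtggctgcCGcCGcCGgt
Hoxd4 (chr2:74721728-74721977): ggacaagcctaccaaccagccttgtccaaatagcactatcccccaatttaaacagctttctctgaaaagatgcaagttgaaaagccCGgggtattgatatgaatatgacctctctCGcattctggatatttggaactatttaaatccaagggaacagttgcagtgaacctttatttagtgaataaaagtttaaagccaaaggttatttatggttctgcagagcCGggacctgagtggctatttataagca
Hoxd8 (chr2:74704365-74704614): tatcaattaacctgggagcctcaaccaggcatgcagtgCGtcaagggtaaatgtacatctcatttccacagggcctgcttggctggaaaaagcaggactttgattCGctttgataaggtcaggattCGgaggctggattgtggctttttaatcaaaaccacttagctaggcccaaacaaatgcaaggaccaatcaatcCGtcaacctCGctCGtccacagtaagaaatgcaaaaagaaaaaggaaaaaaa
Hoxd13 (chr2:74667975-74668224): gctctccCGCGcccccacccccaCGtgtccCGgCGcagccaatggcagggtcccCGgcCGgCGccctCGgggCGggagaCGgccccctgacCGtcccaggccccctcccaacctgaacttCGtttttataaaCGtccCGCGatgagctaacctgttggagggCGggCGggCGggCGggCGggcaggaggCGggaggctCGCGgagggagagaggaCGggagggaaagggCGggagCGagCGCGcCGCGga
The letters AGGTCA, the half-site of retinoic acid receptors, were searched on both strands. They stood in windows of 4 members (Hoxd3, Hoxd4, Hoxd8 and Hoxd10) and in 14.02% of all windows. The half-site variant AGTTCA stood in 1 member (Hoxd13) and 11.84% of windows. A direct repeat of AGGTCA spaced by 5 bases stood in 0 members and 0.01% of windows. TTTATG, a CDX-type core, stood in 3 members (Hoxd3, Hoxd4 and Hoxd11) and 10.76% of windows. CGCG stood in 5 members (Hoxd1, Hoxd3, Hoxd10, Hoxd11 and Hoxd13) and 33.77% of windows. Such matches describe the letters in these windows and nothing about binding.

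From 10.7 to 17.1 M reads per library were recovered at day 4, and from 17.7 to 22.8 M reads at day 0. Levels below are normalized counts (reads divided by the library's size factor). Differences are log2 differences on the scale of log2(normalized count + 1), tested with limma and adjusted by the Benjamini-Hochberg method over all genes tested, with a gene called below 0.05. Kmt2a averaged 104 normalized counts in double-KO and 55.9 in Mll1-KO cells at day 4, against 2362 in Mll2-KO and 2141 in WT cells. Kmt2b RNA was present in every group (2266 to 2502 on average at day 4) and does not check the Mll2 deletion. In bulk RNA, fewer cells of a type that express a gene and less RNA per cell cannot be told apart.

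At day 4 the cluster was on in every genotype, but unevenly along its length. Per kilobase of exon, the order of the WT levels was Hoxd8 (74.9 ± 3.60 normalized counts per kb, SD, n = 3), Hoxd9 (63.1 ± 9.36), Hoxd1 (58.1 ± 4.19), Hoxd4 (40.2 ± 1.91), Hoxd13 (33.6 ± 2.96), Hoxd3 (14.2 ± 2.81), Hoxd10 (4.33 ± 1.85), Hoxd11 (2.62 ± 1.13) and Hoxd12 (0.287 ± 0.251). Among neighbours in this order, the libraries overlapped for Hoxd8 and Hoxd9, for Hoxd9 and Hoxd1, and for Hoxd10 and Hoxd11, and not for the others. The weakest members were Hoxd10, Hoxd11 and Hoxd12, which lie side by side between the active Hoxd9 and Hoxd13. Over all 24 libraries Hoxd12 had 13 reads and Hoxd10 had 75, and neither passed the filter of at least 10 normalized counts in at least 3 libraries. It was passed by 7 of 9 members at day 4 and 5 of 9 at day 0, when Hoxd3 and Hoxd11 also dropped out.

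**Figure D1:**
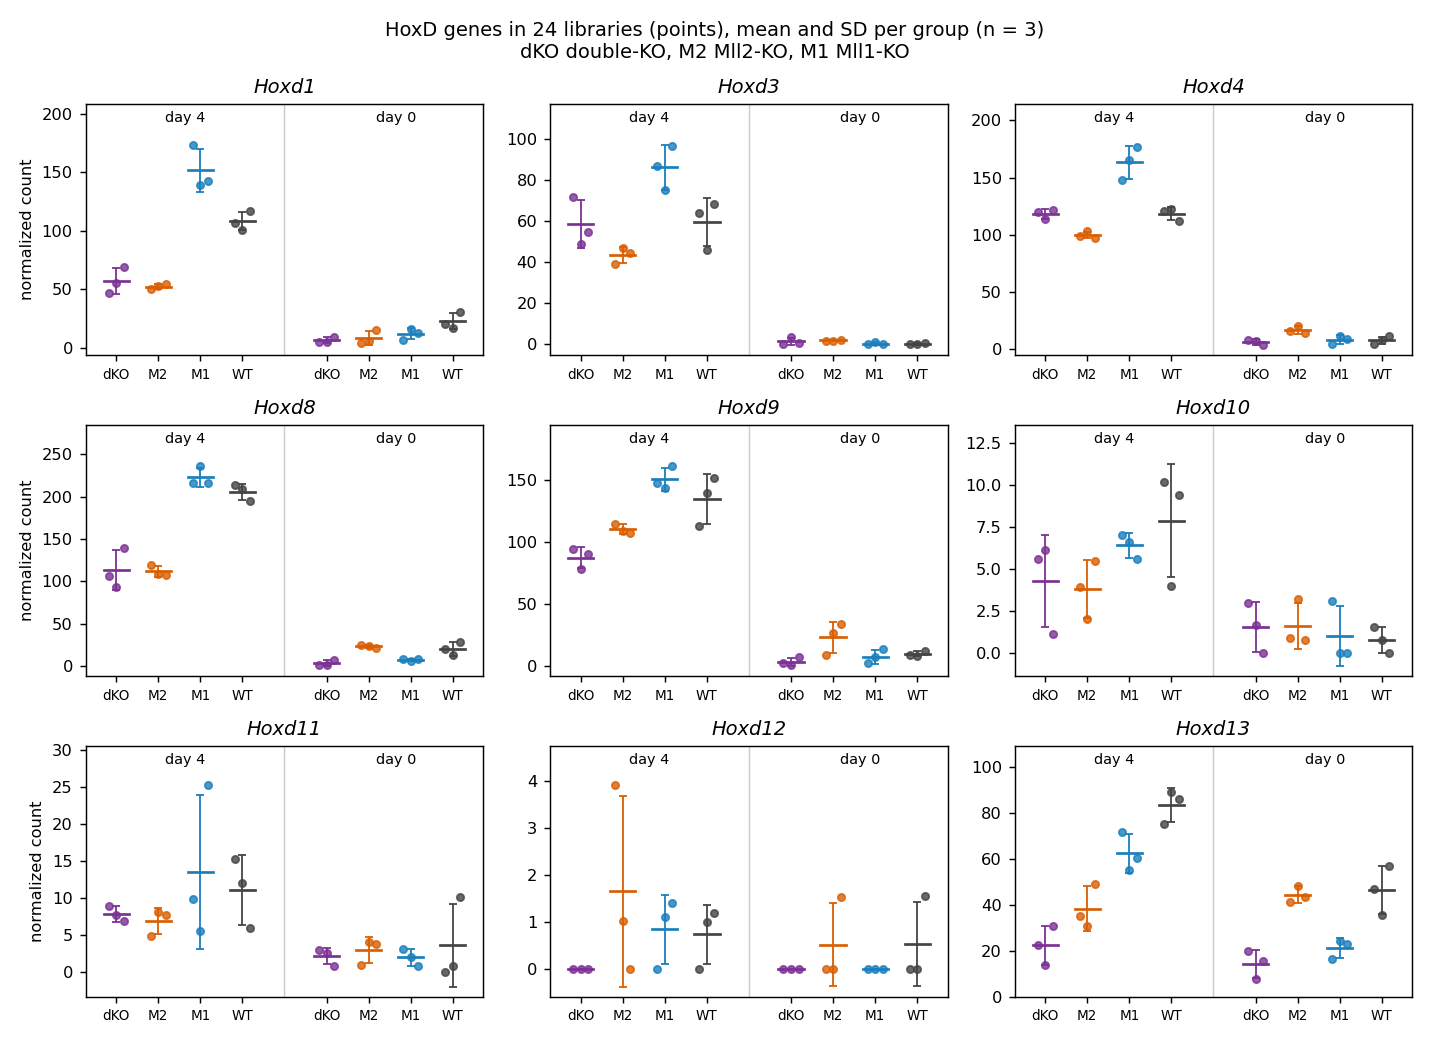
Normalized counts of the 9 HoxD genes in each of 24 libraries (points), with the mean and SD of each group (n = 3), for day 4 on the left and day 0 on the right of each panel; each panel has its own linear axis. Hoxd1, Hoxd8 and Hoxd13 stand lower in double-KO and Mll2-KO than in WT cells at day 4, while Hoxd4 is high in Mll1-KO cells.

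The first comparison asks what retinoic acid differentiation does to the cluster in WT cells. Both days were fitted together, which kept 7 members, but Hoxd3 reached 10 normalized counts in no day 0 library and Hoxd11 in 1 of 12, so these genes entered mainly through the day on which they were high and are left out of the counts. Of the 5 members that passed the filter on each day by itself, all 5 were higher at day 4 than at day 0 (median log2 difference 3.33), where 43% of 15114 genes were called higher, and 42.1% of the 13214 genes that passed on each day (median 0.0139). Hoxd4, which patterns the hindbrain and neck vertebrae, had 121, 122 and 112 normalized counts in the WT libraries at day 4, against 4.59, 7.60 and 10.9 at day 0 (log2 difference 3.85, adjusted p = 2.46e-12). Every day 4 library stood far above every day 0 library. Hoxd3, which patterns the first neck vertebrae, had 167 reads over the 3 WT libraries at day 4 and 1 read at day 0, a ratio of 231 with a 95% counting interval of 40.8 to 9170. Hoxd1, which in mice shapes the wiring of pain-sensing neurons, had 107, 101 and 117 normalized counts at day 4 and 20.7, 17.5 and 31.1 at day 0 (log2 difference 2.22, adjusted p = 8.57e-07). Hoxd1 was thus already measurable in undifferentiated WT cells.

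Farther along the cluster, Hoxd8 had 213, 208 and 194 normalized counts in WT cells at day 4 and 19.9, 12.9 and 28.7 at day 0 (log2 difference 3.33, adjusted p = 1.22e-10). Hoxd9, which takes part in limb and spinal cord patterning, was 113, 139 and 152 at day 4 and 9.19, 8.35 and 12.4 at day 0 (log2 difference 3.63, adjusted p = 4.04e-08). Neither gene's days overlapped. Hoxd13, the last gene of the cluster and a determinant of digits, showed the smallest called rise of the members, with 75.2, 89.2 and 86.0 normalized counts at day 4 and 46.7, 35.7 and 56.7 at day 0 (log2 difference 0.86, adjusted p = 0.00988). Its days did not overlap either, but the call was lost without day 0 WT replicate 2 (log2 difference 0.68, adjusted p = 0.0590). Hoxd11, which with its HoxA paralog forms the forearm, had 15.2, 12.0 and 5.89 normalized counts at day 4 and 0, 0.760 and 10.1 at day 0 (log2 difference 2.07, adjusted p = 0.00493). Its days overlapped, and the call was lost without day 0 WT replicate 1 (adjusted p = 0.0636). Hoxd10, a patterning gene of hindlimb motor neurons, had 22 reads in WT cells at day 4 and 3 at day 0, a ratio of 10.1 with a counting interval of 3.04 to 52.9.

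In the other clusters few genes passed the filter at day 0, and those that did were called higher at day 4: 3 of 3 HoxA genes (median log2 difference 3.95), 3 of 3 HoxB genes (5.10) and 1 of 1 HoxC gene (1.04). Of all genes that passed the filter on each day, 42.1% were called higher. The other Hox genes of the fit passed it through their day 4 values and are not counted. HoxD genes together held 5.47% ± 0.150 of all Hox normalized counts in WT cells at day 4 and 30.3% ± 7.45 at day 0 (SD, n = 3). At day 0 all Hox totals were low, with the HoxD sum between 83.5 and 152 normalized counts per WT library, against 718 to 746 at day 4 in WT.

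The same change was then measured in the mutants. Of the 5 members that passed the filter on each day, 5 were called higher at day 4 in double-KO cells (43.2% of all genes in the fit), 5 in Mll1-KO cells (43.7%) and 4 in Mll2-KO cells (41.9%), the exception being Hoxd13. Hoxd8 differed by 4.77 on the log2 scale between day 4 and day 0 in double-KO, 4.73 in Mll1-KO, 2.21 in Mll2-KO and 3.33 in WT cells. The double-KO and Mll1-KO values rest on few reads at day 0, with 2, 2 and 9 in double-KO and 8, 6 and 10 in Mll1-KO libraries. At day 4 Hoxd8 averaged 113 normalized counts in double-KO and 205 in WT cells. Hoxd13 had 35.3, 30.6 and 49.1 normalized counts at day 4 and 41.2, 48.4 and 43.5 at day 0 in Mll2-KO cells, with overlapping days and a log2 difference of -0.23 (95% interval -0.84 to 0.38, adjusted p = 0.477). The Hoxd13 rise in double-KO cells was at the threshold (log2 difference 0.64, adjusted p = 0.0491), and passed it no longer in 18 of the 24 fits that left out 1 library, with the lowest value of 0.27 (adjusted p = 0.396) without day 0 double-KO replicate 2. Hoxd11 in double-KO cells (log2 difference 1.57, adjusted p = 0.0287) lost its call without day 0 double-KO replicate 3 (adjusted p = 0.119), day 4 double-KO replicate 1 (0.0697) or day 4 double-KO replicate 2 (0.0539).

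**Figure D2:**
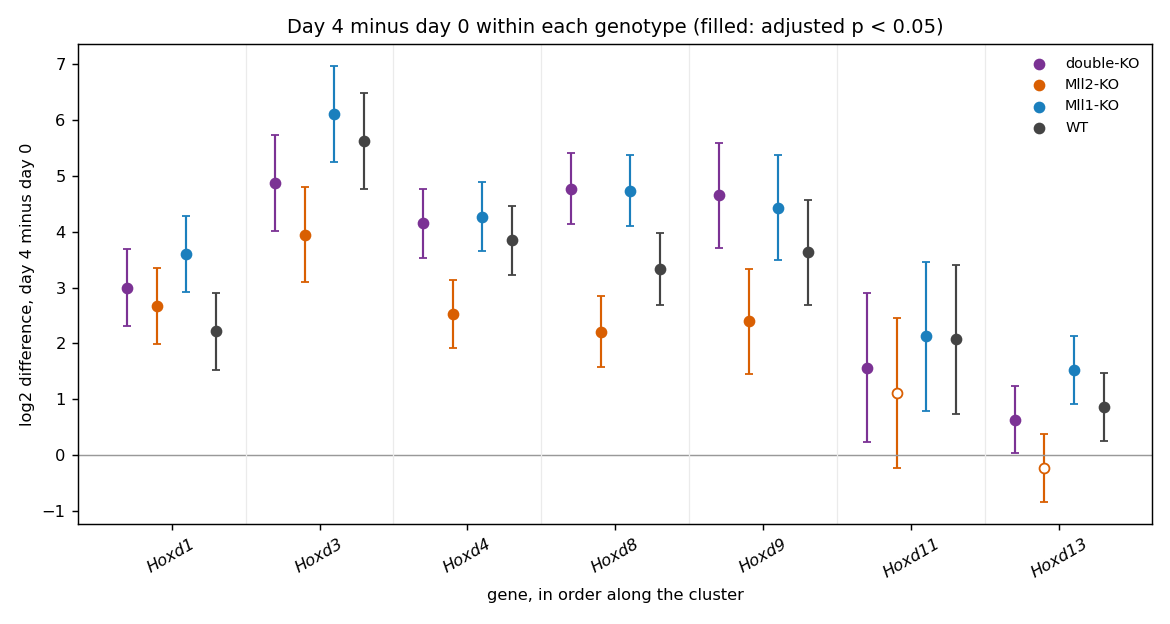
Log2 difference of day 4 minus day 0 for the 7 members tested, in double-KO, Mll2-KO, Mll1-KO and WT cells, in order along the cluster; bars are 95% intervals and filled points were called. From Hoxd1 to Hoxd9 every interval lies above 0 in every genotype, and the values for Hoxd13 run from -0.23 in Mll2-KO to 1.52 in Mll1-KO cells.

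At day 4 loss of MLL2 was accompanied by lower RNA of members at both ends and in the middle of the cluster. In Mll2-KO against WT cells 3 of 7 members tested fell, where 20.3% of 14303 genes were called lower, and the other 4 did not pass the test. The median log2 difference was -0.55, against 0.0399 over all genes. Hoxd1 had 50.0, 53.0 and 54.6 normalized counts in Mll2-KO cells, against 107, 101 and 117 in WT cells. All 3 Mll2-KO libraries lay at about the same level, below every WT library (log2 difference -1.03, SE 0.16, adjusted p = 7.33e-06). Hoxd8 had 120, 109 and 108 normalized counts in Mll2-KO cells, against 213, 208 and 194 in WT cells, again without overlap (log2 difference -0.87, adjusted p = 3.13e-06). Hoxd13 had 35.3, 30.6 and 49.1 in Mll2-KO cells, against 75.2, 89.2 and 86.0 in WT cells, and the highest Mll2-KO library stayed below the lowest WT library (log2 difference -1.13, adjusted p = 0.000434).

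The members between these did not pass the test in Mll2-KO cells. Hoxd4 had 99.0, 103 and 97.1 normalized counts in Mll2-KO cells, against 121, 122 and 112 in WT cells. The libraries did not overlap, but the log2 difference was -0.25 (95% interval -0.49 to -0.003, adjusted p = 0.0917). Hoxd9 had a log2 difference of -0.28 (adjusted p = 0.0866) and Hoxd3 of -0.42 (adjusted p = 0.0720). Scaling to column totals in place of size factors called Hoxd3, Hoxd4 and Hoxd9 lower as well (6 of 7 members), edgeR called 5 of 7, and DESeq2 called 3 of 7. Among all calls, 55.6% were higher in Mll2-KO, and 34.4% under scaling to column totals.

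In Mll1-KO cells the members at the 3′ end moved the other way. In Mll1-KO against WT cells at day 4, 3 of 7 members rose, where 16.5% of genes were called higher, and the other 4 did not pass the test. The median log2 difference was 0.17, against -0.00241 over all genes. Hoxd4 had 148, 166 and 177 normalized counts in Mll1-KO cells, against 121, 122 and 112 in WT cells, and every Mll1-KO library was above every WT library (log2 difference 0.46, SE 0.12, adjusted p = 0.00338). Hoxd1 had 173, 139 and 143 in Mll1-KO cells, against 107, 101 and 117 in WT cells (log2 difference 0.48, adjusted p = 0.0185). Hoxd3 had 87.2, 75.0 and 96.8 in Mll1-KO cells, against 64.0, 46.1 and 68.3 in WT cells (log2 difference 0.54, adjusted p = 0.0281). For neither gene did the groups overlap, although the lowest Mll1-KO library of Hoxd3 lay only a few counts above the highest WT library.

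Toward the 5′ end the Mll1-KO values did not pass the test. Hoxd8 had a log2 difference of 0.12 (95% interval -0.14 to 0.37) and Hoxd9 of 0.17 (-0.10 to 0.44). Hoxd13 had 71.7, 55.2 and 60.3 normalized counts in Mll1-KO cells, against 75.2, 89.2 and 86.0 in WT cells. All 3 Mll1-KO libraries were the lower ones, with a log2 difference of -0.42 (-0.91 to 0.08, adjusted p = 0.184). The call for Hoxd4 held whichever library was left out. Those for Hoxd1 and Hoxd3 were lost without day 4 WT replicate 2 (adjusted p = 0.0740 and 0.179) or Mll1-KO replicate 1 (0.100 and 0.0654), and that for Hoxd3 also without Mll1-KO replicate 3 (0.114). Of the calls over all genes, 46.2% were higher in Mll1-KO, and 60.3% under scaling to column totals.

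With both proteins lost, 4 of 7 members fell in double-KO against WT cells at day 4, where 23.3% of genes were called lower, and the other 3 did not pass the test. The median log2 difference was -0.61, against 0.0263 over all genes. Hoxd13 had 22.4, 13.8 and 30.8 normalized counts in double-KO cells, against 75.2, 89.2 and 86.0 in WT cells. Even the highest double-KO library held far fewer reads than the lowest WT library (log2 difference -1.92, SE 0.24, adjusted p = 2.89e-07). Hoxd8 had 106, 93.5 and 139 in double-KO cells, against 213, 208 and 194 in WT cells (log2 difference -0.88, adjusted p = 1.99e-06). Hoxd1 had 47.0, 55.2 and 69.6 in double-KO cells, against 107, 101 and 117 in WT cells (log2 difference -0.92, adjusted p = 2.35e-05). Both genes were lower in every double-KO library than in any WT library. Hoxd9 had 94.0, 78.2 and 90.1 in double-KO cells, against 113, 139 and 152 in WT cells, also without overlap (log2 difference -0.61, adjusted p = 0.000364). Hoxd4 averaged 118 ± 4.45 normalized counts in double-KO and 118 ± 5.64 in WT cells (SD, n = 3 each), with a 95% interval of the log2 difference of -0.24 to 0.24. Hoxd3 likewise did not pass, with an interval of -0.41 to 0.37. Of all genes called, 54.2% were higher in double-KO, and 41.3% under scaling to column totals.

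**Figure D3:**
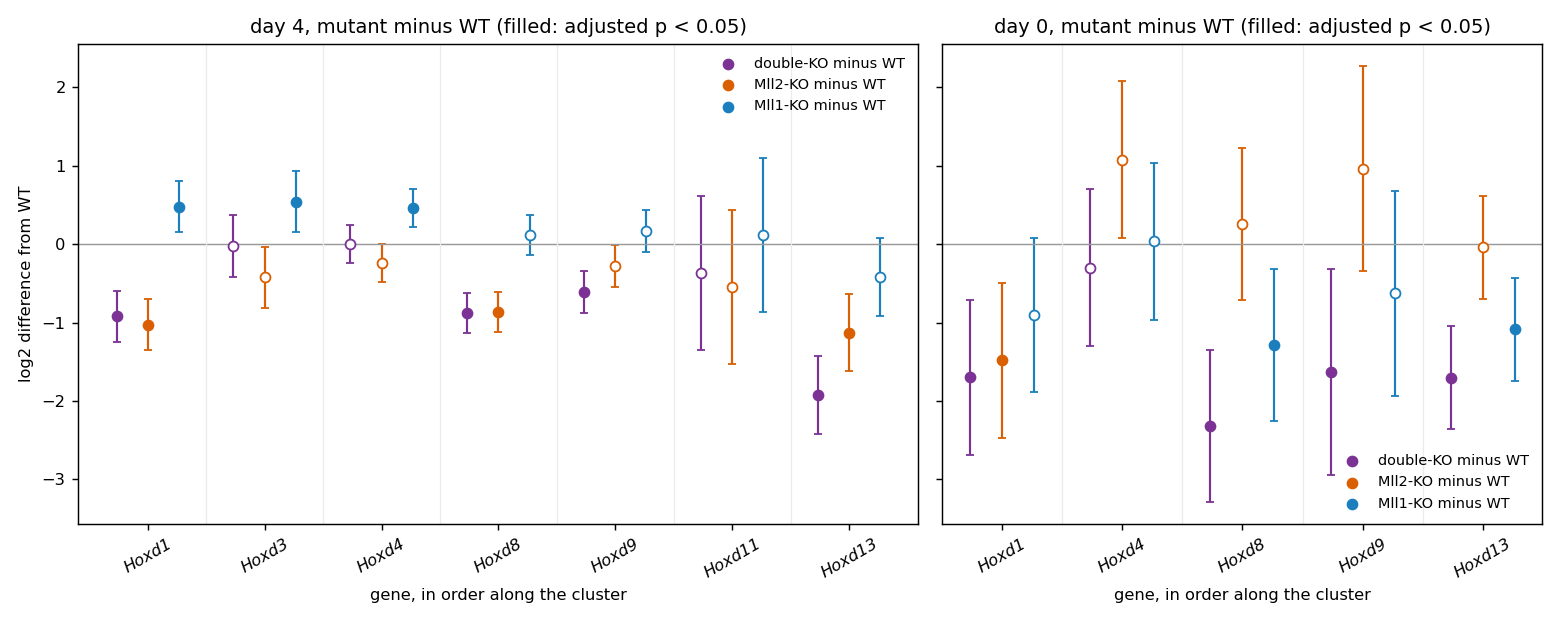
Log2 difference of double-KO, Mll2-KO and Mll1-KO minus WT for each member tested, at day 4 (left, 7 genes) and day 0 (right, 5 genes), in order along the cluster; bars are 95% intervals and filled points were called. At day 4 double-KO and Mll2-KO points are close for Hoxd1 and Hoxd8 and lowest for Hoxd13, while the Mll1-KO points of Hoxd1, Hoxd3 and Hoxd4 lie above 0; day 0 intervals are wider.

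The double-KO was then set against each single mutant at day 4. Against Mll1-KO cells 6 of 7 members were lower, where 23.7% of genes were called lower: all but Hoxd11. Hoxd1 averaged 57.3 ± 11.4 normalized counts in double-KO and 152 ± 18.6 in Mll1-KO cells (log2 difference -1.40, adjusted p = 4.15e-08). Hoxd13 averaged 22.3 ± 8.50 in double-KO and 62.4 ± 8.48 in Mll1-KO cells (log2 difference -1.50, adjusted p = 9.87e-06). For both genes the libraries did not overlap. The Hoxd3 call was lost without Mll1-KO replicate 3 (adjusted p = 0.0670) or double-KO replicate 2 (0.0754). Among all calls, 56.7% were higher in double-KO, and 36.1% under scaling to column totals.

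Against Mll2-KO cells only 2 of 7 members, Hoxd9 and Hoxd13, were lower in double-KO cells by limma, where 20.9% of genes were called lower. Hoxd13 had 22.4, 13.8 and 30.8 normalized counts in double-KO and 35.3, 30.6 and 49.1 in Mll2-KO cells, with the groups touching at 30.8 in the double-KO and 30.6 in the Mll2-KO (log2 difference -0.79, adjusted p = 0.0102). Hoxd9 had 94.0, 78.2 and 90.1 in double-KO cells and 115, 109 and 107 in Mll2-KO cells, without overlap (log2 difference -0.33, adjusted p = 0.0436). Leaving out Mll2-KO replicate 3 or double-KO replicate 2 ended the Hoxd13 call (adjusted p = 0.0753 and 0.0915), and Hoxd9 lost its call in 6 of 12 such fits (highest adjusted p 0.166, without double-KO replicate 2). Hoxd8 and Hoxd1 did not pass, with intervals of the log2 difference of -0.26 to 0.25 and -0.22 to 0.43.

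Between the single mutants, 6 of 7 members were lower in Mll2-KO than in Mll1-KO cells at day 4, where 28.1% of genes were called lower. Hoxd1 showed the largest of these differences, with 52.5 ± 2.32 normalized counts in Mll2-KO and 152 ± 18.6 in Mll1-KO cells (log2 difference -1.51, adjusted p = 7.50e-09). The Hoxd13 call (log2 difference -0.71, adjusted p = 0.0134) was lost without Mll1-KO replicate 1 (adjusted p = 0.0611) or Mll2-KO replicate 2 (0.0733). Of the calls over all genes, 53.7% were higher in Mll2-KO, and 33.7% under scaling to column totals. Whether the Mll2 difference depended on MLL1 was tested as non-additivity, the log2 difference of double-KO minus Mll1-KO less that of Mll2-KO minus WT. By limma 0 of 7 members were called, 1 had an unadjusted p under 0.05, and edgeR and DESeq2 called 0, against 13.6% of all genes called by limma. The member with the smallest p was Hoxd9, with a non-additivity of -0.51 (95% interval -0.89 to -0.12, adjusted p = 0.0698).

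Marker genes of cell types moved with the groups at day 4. The summed level of 5 pluripotency markers (Pou5f1, Nanog, Zfp42, Esrrb and Sox2) ranged from 2160 to 2210 normalized counts in double-KO, from 4240 to 5080 in Mll2-KO, from 986 to 1220 in Mll1-KO and from 2210 to 3060 in WT libraries. That of 5 primitive and visceral endoderm markers (Gata4, Gata6, Sox17, Sox7 and Foxa2) ranged from 5890 to 6280 in double-KO, from 8620 to 9060 in Mll2-KO, from 4330 to 4450 in Mll1-KO and from 6130 to 6640 in WT libraries. The 5 neural markers (Sox1, Pax6, Nes, Tubb3 and Map2) summed to 5860 to 6390 in double-KO, 3300 to 4080 in Mll2-KO, 4500 to 5190 in Mll1-KO and 3630 to 4140 in WT libraries. The 5 fibroblast markers (Col1a1, Col1a2, Thy1, Pdgfra and Twist2) summed to 4150 to 4250 in double-KO, 4620 to 4730 in Mll2-KO, 2730 to 2940 in Mll1-KO and 3420 to 3520 in WT libraries. These sums are set by the most abundant markers and do not show that each list moved as a set. Against WT, 27.6% of all genes were called higher and 23.3% lower in double-KO, 25.4% and 20.3% in Mll2-KO, and 16.5% and 19.2% in Mll1-KO. Of the 5 pluripotency markers, 3 were called lower in double-KO, 4 higher in Mll2-KO and 5 lower in Mll1-KO cells. Of the 5 endoderm markers, 1 was called higher and 2 lower in double-KO, 4 higher in Mll2-KO and 5 lower in Mll1-KO cells. Among neural markers 2 were called higher and 2 lower in each mutant. Of the fibroblast markers, 1 was called higher and 3 lower in double-KO, 2 and 2 in Mll2-KO, and 1 and 2 in Mll1-KO cells. The 4 mesoderm markers summed to 54.8 to 57.0 in double-KO, 51.3 to 84.6 in Mll2-KO, 64.7 to 93.9 in Mll1-KO and 95.5 to 131 in WT libraries. Every mutant library was below every WT library. Only 1 of these markers was tested, and it was called lower in double-KO (log2 difference -1.12), Mll2-KO (-1.01) and Mll1-KO cells (-0.69). Mesp1 averaged below 1 in Mll1-KO cells. Mll2-KO cultures were thus highest in pluripotency and endoderm markers and Mll1-KO cultures lowest, and the part of this in the HoxD differences was not tested.

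At day 0 the cluster was low, and the mutants divided its members differently. In double-KO against WT cells 4 of 5 members fell, where 27.1% of 13984 genes were called lower. Hoxd4 was the member that did not pass (log2 difference -0.30, adjusted p = 0.621). Hoxd8 had 1.97, 1.68 and 7.74 normalized counts in double-KO cells, against 19.9, 12.9 and 28.7 in WT cells (log2 difference -2.32, adjusted p = 0.000287). Hoxd13 had 19.7, 7.58 and 15.5 in double-KO cells, against 46.7, 35.7 and 56.7 in WT cells (log2 difference -1.70, adjusted p = 0.000119). Hoxd1 had 4.93, 5.05 and 9.46 in double-KO cells, against 20.7, 17.5 and 31.1 in WT cells (log2 difference -1.70, adjusted p = 0.00482). None of these genes had overlapping groups. Hoxd9 was also called (log2 difference -1.63, adjusted p = 0.0343), but not by edgeR (adjusted p = 0.0662), and the call was lost in 5 of 12 fits that left out 1 library, with the highest adjusted p of 0.151 without double-KO replicate 2.

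In Mll1-KO against WT cells at day 0, 2 of 5 members fell, where 18.7% of genes were called lower. Hoxd13 had 16.5, 24.4 and 22.8 normalized counts in Mll1-KO cells, against 46.7, 35.7 and 56.7 in WT cells (log2 difference -1.09, adjusted p = 0.00872). Hoxd8 had 8.23, 5.86 and 8.43 in Mll1-KO cells, against 19.9, 12.9 and 28.7 in WT cells (log2 difference -1.29, adjusted p = 0.0325). The groups did not overlap for either gene, but without WT replicate 3 neither was called (adjusted p = 0.0542 for Hoxd13 and 0.159 for Hoxd8), and Hoxd8 was also lost without WT replicate 1 (0.0769) or Mll1-KO replicate 1 (0.0555), 2 (0.101) or 3 (0.0525). Of all genes called, 53.2% were higher in Mll1-KO, and 38.9% under scaling to column totals.

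In Mll2-KO against WT cells at day 0, Hoxd1 was the 1 member of 5 that fell, where 24.3% of genes were called lower. It had 4.48, 5.64 and 15.3 normalized counts in Mll2-KO cells, against 20.7, 17.5 and 31.1 in WT cells (log2 difference -1.48, adjusted p = 0.0143). The groups did not overlap, but the call was lost without WT replicate 3 (adjusted p = 0.0756) or Mll2-KO replicate 1 (0.0677) or 2 (0.0505). Hoxd4 had 16.1, 20.2 and 13.7 in Mll2-KO cells, against 4.59, 7.60 and 10.9 in WT cells. Every Mll2-KO library was the higher, with a log2 difference of 1.07 (95% interval 0.07 to 2.08, adjusted p = 0.0721 by limma and 0.0426 by edgeR). Hoxd4 passed the day 0 filter only with these Mll2-KO libraries. Hoxd13 had 41.2, 48.4 and 43.5 in Mll2-KO cells, inside the WT range of 35.7 to 56.7, and its log2 difference was -0.04 (-0.69 to 0.61).

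At day 0, Hoxd8 and Hoxd13 were lower in double-KO than in Mll2-KO cells, where 24.3% of genes were called lower. Hoxd1 was not called (log2 difference -0.22, adjusted p from limma = 0.728). Hoxd4 and Hoxd9 were also called lower. They passed the day 0 filter only with the Mll2-KO libraries, where their means were highest, and are not counted. Hoxd8 averaged 3.80 ± 3.41 normalized counts in double-KO and 23.5 ± 1.94 in Mll2-KO cells (log2 difference -2.57, adjusted p = 0.000126). Hoxd9 averaged 3.23 ± 3.21 in double-KO and 23.0 ± 12.7 in Mll2-KO cells (log2 difference -2.59, adjusted p = 0.00201). For neither gene did the libraries overlap. The Hoxd4 call (log2 difference -1.38, adjusted p = 0.0230) was lost without Mll2-KO replicate 1 (adjusted p = 0.0515) or 2 (0.0826) or double-KO replicate 3 (0.0950). Among all calls, 49% were higher in double-KO, and 38.1% under scaling to column totals. Against Mll1-KO cells limma called 0 of 5 members in the double-KO at day 0, 1 had an unadjusted p under 0.05, and edgeR and DESeq2 called 0, where limma called 41% of all genes. The log2 differences of the 5 members ran from -1.03 for Hoxd8 to -0.34 for Hoxd4.

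The sums of endoderm and fibroblast markers at day 0 followed the MLL1 genotype. The 5 endoderm markers summed to 438 to 528 normalized counts in double-KO, 1420 to 1610 in Mll2-KO, 342 to 359 in Mll1-KO and 1450 to 1740 in WT libraries. The 5 fibroblast markers summed to 142 to 177 in double-KO, 570 to 649 in Mll2-KO, 154 to 191 in Mll1-KO and 656 to 730 in WT libraries, with Twist2 below 1 on average in double-KO and WT cells. Of the 3 fibroblast markers tested, 2 were called lower in double-KO (27.1% of all genes) and 2 in Mll1-KO (18.7%) against WT cells. In Mll1-KO cells these were Pdgfra (log2 difference -2.70) and Thy1 (-0.99), and Col1a1 was not called (-0.07, adjusted p from limma = 0.896). The 5 neural markers summed to 2410 to 2670 in double-KO, 1310 to 1550 in Mll2-KO, 2350 to 2450 in Mll1-KO and 1540 to 1730 in WT libraries. Hoxd8 and Hoxd13 were low in the same genotypes as these 2 sums, and the part of cell types in the Hoxd8 and Hoxd13 differences was not tested. Pluripotency markers summed to between 69300 and 80000 in all day 0 libraries.

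Whether a mutant's difference from WT changed between the days was tested as an interaction. The 5 members that passed the filter on each day are given first. The Mll1-KO difference was higher at day 4 than at day 0 for Hoxd1 and Hoxd8 (15% of all genes were called higher). The Mll2-KO difference was lower at day 4 for Hoxd8 and Hoxd13 (17% called lower). It was also called lower for Hoxd4. That gene passed the day 0 filter only with the Mll2-KO libraries, where its mean was highest, and is not counted. The double-KO difference was higher at day 4 for Hoxd8 alone (20.3% called higher). This double-KO call was lost with a pseudocount of 5 (0.70, adjusted p from limma = 0.0685). Hoxd3 and Hoxd11 did not pass the filter at day 0. Hoxd3 was also called lower in the Mll2-KO interaction, with 7 reads in Mll2-KO and 1 read in WT cells at day 0. Hoxd8 passed in each of these interactions by limma, with 1.40 for Mll1-KO (adjusted p = 0.0146), -1.12 for Mll2-KO (adjusted p = 0.0472) and 1.44 for double-KO (adjusted p = 0.0104). For Hoxd13 the Mll2-KO difference was -1.13 at day 4 and -0.04 at day 0 (interaction -1.09, adjusted p = 0.0435). The Mll2-KO interactions of Hoxd3, Hoxd4, Hoxd8 and Hoxd13 were sensitive to single libraries, with 0 of these 4 called without day 0 WT replicate 1. Over the 24 fits that left out 1 library the call was lost in 16 for Hoxd8, 10 for Hoxd13, 6 for Hoxd3 and 1 for Hoxd4, and Hoxd8 and Hoxd13 were also not called with a pseudocount of 0.5 (adjusted p = 0.0672 and 0.0512). Hoxd9 (-1.24, adjusted p = 0.140 by limma) was called in this interaction by edgeR (0.00606) and DESeq2 (0.000569). Like Hoxd4, it passed the day 0 filter only with the Mll2-KO libraries. Of the calls over all genes, 44% had a higher Mll1-KO difference (64.7% under scaling to column totals) and 53.2% a higher Mll2-KO difference (37.5%).

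The make-up of the cluster's RNA also differed between groups. Hoxd13 accounted for 4.67% ± 1.34 of HoxD normalized counts in double-KO, 8.16% ± 1.97 in Mll2-KO, 7.27% ± 0.925 in Mll1-KO and 11.4% ± 0.933 in WT cells at day 4 (SD, n = 3 each). Every mutant library was below the lowest WT library of 10.5%. Hoxd4 held 25.4% ± 1.75 in double-KO, 21.3% ± 0.891 in Mll2-KO, 19.0% ± 1.62 in Mll1-KO and 16.2% ± 1.07 in WT cells, and here every mutant library was above the highest WT library of 16.9%. At day 0 Hoxd13 was the largest component, with 35.6% ± 10.4 in double-KO, 36.5% ± 4.72 in Mll2-KO, 35.7% ± 1.52 in Mll1-KO and 41.8% ± 4.21 in WT cells. These shares are not corrected for gene length and were not tested.

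**Figure D4:**
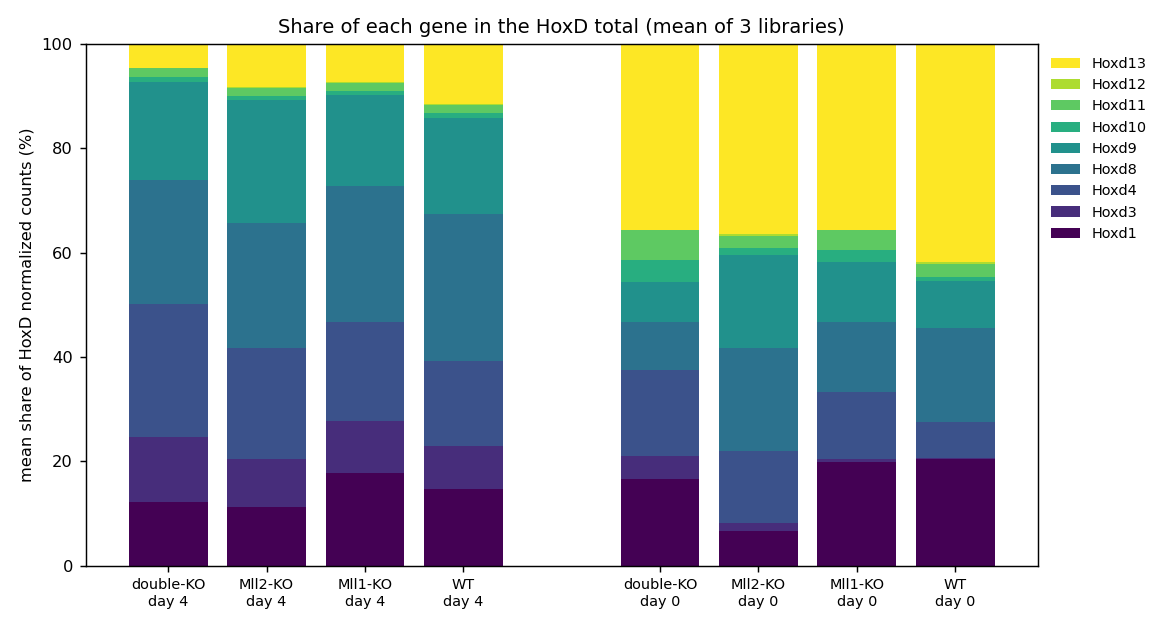
Mean share of each of the 9 genes in the summed HoxD normalized counts (3 libraries per group, no error bars), for day 4 (left) and day 0 (right). Hoxd13, at the top of each bar, takes 35.6% to 41.8% at day 0 and 4.67% to 11.4% at day 4.

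The HoxD sum at day 4 was 469 ± 49.0 normalized counts in double-KO, 469 ± 5.60 in Mll2-KO, 858 ± 29.4 in Mll1-KO and 729 ± 14.5 in WT cells. As a share of all Hox normalized counts it was 3.96% ± 0.325 in double-KO, 4.24% ± 0.0163 in Mll2-KO, 6.12% ± 0.162 in Mll1-KO and 5.47% ± 0.150 in WT cells. The groups lacking MLL2 lay together, below WT, and Mll1-KO above it. The counts of the other clusters are to be read against the shares of all genes called at day 4. These were 20.3% lower and 25.4% higher in Mll2-KO, 23.3% and 27.6% in double-KO, and 19.2% and 16.5% in Mll1-KO against WT cells. In the Mll2-KO against WT comparison, 6 of 10 HoxA genes tested fell and 1 rose (median log2 difference -0.35), 8 of 10 HoxB genes fell (-0.57), and 6 of 7 HoxC genes fell and 1 rose (-0.51). In double-KO against WT cells 5 of 10 HoxA genes fell and 2 rose (-0.98), 7 of 10 HoxB genes fell and 1 rose (-0.42), and 4 of 7 HoxC genes fell and 2 rose (-0.51). In Mll1-KO against WT cells 4 of 10 HoxA genes fell and 2 rose (-0.34), 2 of 10 HoxB genes fell and 4 rose (-0.11), and 1 of 7 HoxC genes fell and 2 rose (0.14). Scaling to column totals left these Mll2-KO counts unchanged. In double-KO cells it gave no rising HoxB gene and 5 falling HoxC genes. In Mll1-KO cells it gave 3 rising HoxA genes, 3 rising HoxC genes and no falling HoxC gene.

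Genes around the cluster and partners of Hox proteins were described from lists of neighbours, cofactors and regulators. Over all genes at day 4, 27.6% were called higher and 23.3% lower in double-KO, 25.4% higher and 20.3% lower in Mll2-KO, and 16.5% higher and 19.2% lower in Mll1-KO against WT cells, and the list counts below are to be read against these shares. Of 9 tested neighbours of HoxD, 1 rose and 2 fell in double-KO against WT cells at day 4, and the largest of these were Lnpk (log2 difference 0.26, adjusted p = 0.00984), which shapes the endoplasmic reticulum, and Chn1 (-0.58, adjusted p = 3.99e-06), a signalling protein of axon guidance. In Mll2-KO cells 2 rose and 3 fell, again led by Lnpk (0.20, adjusted p = 0.0470) and Chn1 (-0.33, adjusted p = 0.00280), and in Mll1-KO cells 1 rose and 2 fell. Under scaling to column totals 1 neighbour rose and 3 fell in double-KO, none rose and 3 fell in Mll2-KO, and 1 rose and 1 fell in Mll1-KO cells. Haglr, a long non-coding RNA read from the opposite strand beside Hoxd1, was not called in any mutant (log2 difference -0.10 in double-KO, -0.45 in Mll2-KO and 0.24 in Mll1-KO), but rose in WT cells at day 4 against day 0 (2.00, adjusted p = 0.000114). Of 9 Hox cofactors of the Pbx, Meis and Pknox families, 4 rose and 1 fell in double-KO, 1 rose and 4 fell in Mll2-KO, and 6 rose and none fell in Mll1-KO against WT cells at day 4. With column totals 3 cofactors rose and 1 fell in double-KO, 1 rose and 6 fell in Mll2-KO, and 6 rose and none fell in Mll1-KO cells. Pbx3 showed the largest fall in both double-KO (-1.15, adjusted p = 2.67e-09) and Mll2-KO cells (-1.02, adjusted p = 3.51e-08). Cdx1, a homeobox regulator of Hox genes, rose in Mll2-KO (1.01, adjusted p = 7.17e-05) and fell in Mll1-KO cells (-1.04, adjusted p = 7.30e-05), and neither of 2 Cdx genes tested was called in double-KO cells (1 was lower under scaling to column totals).

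Of 16 retinoic acid pathway genes tested at day 4, 3 rose and 8 fell in double-KO, 4 rose and 7 fell in Mll2-KO, and 7 rose and 2 fell in Mll1-KO against WT cells. Scaling to column totals gave 2 up and 9 down in double-KO, 2 up and 8 down in Mll2-KO, and 7 up and 2 down in Mll1-KO cells. Aldh1a2, which makes retinoic acid, fell in double-KO (-3.46, adjusted p = 3.52e-17) and in Mll2-KO cells (-3.17, adjusted p = 3.02e-16) and rose in Mll1-KO cells (0.68, adjusted p = 9.72e-05). Of the other enzymes that make it, Aldh1a1 rose in Mll2-KO (1.21, adjusted p = 7.66e-10) and in double-KO cells (0.94, adjusted p = 4.22e-08), and Aldh1a3 rose in double-KO cells (1.26, adjusted p = 0.0315). Cyp26a1, which degrades retinoic acid, fell in double-KO (-0.20, adjusted p = 0.000223) and in Mll1-KO cells (-0.46, adjusted p = 3.74e-09) and rose in Mll2-KO cells (0.36, adjusted p = 1.02e-07). The double-KO values of Aldh1a1 and Cyp26a1 and the Mll2-KO value of Cyp26a1 were chosen after they were seen. Of 21 Polycomb genes tested, 5 rose and 7 fell in double-KO, 5 rose and none fell in Mll2-KO, and 4 rose and 6 fell in Mll1-KO cells. Under scaling to column totals 4 rose and 7 fell in double-KO, 2 rose and 4 fell in Mll2-KO, and 5 rose and 6 fell in Mll1-KO cells. Epop, a Polycomb-associated protein, rose in Mll2-KO (0.61, adjusted p = 3.28e-09) and fell in Mll1-KO cells (-0.64, adjusted p = 2.39e-09), and Phf19, a Polycomb accessory protein, fell in double-KO cells (-1.23, adjusted p = 0.000227). The part of these genes in the HoxD differences was not tested.

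The genes whose levels tracked Hoxd8 and Hoxd4, the 2 members with the highest mean normalized count over the day 4 libraries, were ranked by Pearson r of log2(normalized count + 1), as a description over libraries that share groups and days. Over the 24 libraries the 5 genes most like Hoxd8 were Ilvbl (r = 0.980), Tgm2 (0.978), Neu3 (0.978), Tm2d1 (0.976) and Ift43 (0.975). Over the 12 day 4 libraries they included Nlrx1 (0.990), Cd1d1 (0.987), Pgbd1 (0.985) and Sst (0.985). Among these, Pgbd1 averaged below 1 normalized count in both double-KO (0.76) and Mll2-KO cells (0.69) at day 4. For Hoxd4 they were Tbx2 (0.984), Cilk1 (0.984), Ttc28 (0.984), Atp7a (0.983) and Smoc2 (0.982) over 24 libraries, and Slc8a2 (0.983), Hoxb2 (0.982), Hoxa5 (0.979), Sfrp1 (0.975) and Vasn (0.974) over the day 4 libraries. Within the cluster at day 4, Hoxd8 tracked Hoxd1 (r = 0.945) and Hoxd13 (0.849) more closely than Hoxd4 (0.717) or Hoxd3 (0.623), and Hoxd4 tracked Hoxd3 (0.845), with which it shares exons, more closely than Hoxd13 (0.323).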

How the data were processed

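PolyA RNA libraries (24, TruSeq stranded) were analysed from 1 deposited table of normalized counts for 19953 genes. The deposited values, recorded as signal, are read counts divided by 1 size factor per library. All values became whole reads (100% at a tolerance of 1e-06). The submitters' processing notes list build mm10, DESeq2 1.34.0, RSEM 1.3.1, SAMtools 1.13, STAR 2.7.10a, FastQC and Trim Galore 3.4. The annotation and strand setting are not given in the sources used here. RSEM estimates may have been rounded. The day 0 WT columns carry an unexplained added letter and were taken as WT, there being no other WT columns of that day.

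Tests used limma 3.58.1 with trend (R 4.3.3) on log2(normalized count + 1), for genes reaching 10 in 3 or more libraries of the fit (12 of 1 day, or 24). This kept 13984 genes at day 0, 14303 at day 4, and 15114 where both days were fitted. Alternatives were pseudocounts of 0.5 and 5, no filter, scaling to column totals, a replicate block, edgeR 4.0.16, DESeq2 1.42.0 on recovered reads, and leaving out each library. Replicate numbers did not pair libraries (84 same-number pairs, median r of residuals 0.00304, 0 over 0.1). Replicates differed by more than sampling noise (chi-square per degree of freedom 1.818 to 10.94). Named were all members, Kmt2a, Kmt2b, the largest called rise and fall of a list per comparison, and the 5 genes most like the 2 members highest at day 4. Of the genes so named, 1 is not reported here. Members, lists and this rule were chosen with earlier results of these data known. Positions are from GENCODE M21 and promoter sequences from RefSeq (GRCm38.p6). Counting intervals cover counting error only. Calculations were tested on simulated data.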

Additional observations from a re-analysis of the deposited data

Results flagged for a closer look

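A mutant's difference from WT was not the same on both days for 7 gene and mutant pairs, by the interaction test of limma (day 4 difference minus day 0 difference, log2).

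In Mll1-KO cells Hoxd1 had an interaction of 1.38 (adjusted p = 0.0248), with a difference from WT of 0.48 at day 4 and -0.90 at day 0. Hoxd8 in Mll1-KO cells had 1.40 (adjusted p = 0.0146), from 0.12 at day 4 and -1.29 at day 0. In double-KO cells Hoxd8 had 1.44 (adjusted p = 0.0104), from -0.88 at day 4 and -2.32 at day 0. The double-KO call rests on 2, 2 and 9 double-KO reads at day 0 and was lost with a pseudocount of 5 (0.70, adjusted p = 0.0685).

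In Mll2-KO cells the interactions were negative. Hoxd3 had -1.68 (adjusted p = 0.0275), which rests on 7 reads in Mll2-KO and 1 read in WT cells at day 0. Hoxd4 had -1.32 (adjusted p = 0.0159), from -0.25 at day 4 and 1.07 at day 0. That gene passed the day 0 filter only with the Mll2-KO libraries, where its mean was highest. Hoxd8 had -1.12 (adjusted p = 0.0472), from -0.87 at day 4 and 0.25 at day 0. Hoxd13 had -1.09 (adjusted p = 0.0435), from -1.13 at day 4 and -0.04 at day 0. Over the 24 fits that left out 1 library, these calls were lost in 6 for Hoxd3, 1 for Hoxd4, 16 for Hoxd8 and 10 for Hoxd13. Those of Hoxd8 and Hoxd13 were also lost with a pseudocount of 0.5 (adjusted p = 0.0672 and 0.0512) and with no filter (0.0756 and 0.0713). None of these 4 was called without day 0 WT replicate 1, with adjusted p of 0.0598 for Hoxd3, 0.0589 for Hoxd4, 0.0678 for Hoxd8 and 0.0630 for Hoxd13. Without day 0 WT replicate 3 neither Hoxd1 (adjusted p = 0.0803) nor Hoxd8 (0.0571) was called in Mll1-KO cells. The Hoxd1 call in Mll1-KO cells was also lost without day 0 Mll1-KO replicate 1 (0.0866), day 4 WT replicate 2 (0.0518) or day 4 Mll1-KO replicate 1 (0.0578).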

How the results depend on the processing

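The replicate block changed no call for the members (123 of 123 values kept direction and side of the threshold), and same-numbered libraries showed no pairing, with 11 of 24 libraries correlating best with their own number. Of the 123 values under each other setting (122 under DESeq2), 112 to 119 kept direction and call. At day 4, with any 1 library left out, the falls of Hoxd1, Hoxd8 and Hoxd13 in Mll2-KO, those of Hoxd1, Hoxd8, Hoxd9 and Hoxd13 in double-KO and the rise of Hoxd4 in Mll1-KO, all against WT, kept their calls. Low counts limit precision at day 0, where the group means of the 5 members tested ran from 3.23 to 46.4 normalized counts. Where a count below differs, the cause was not tested.

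Members called in Mll2-KO against WT at day 0 numbered 2 with a pseudocount of 5 or edgeR (1 by limma), and at day 4 numbered 6 with column totals and 5 with edgeR (3 by limma). In double-KO against Mll2-KO at day 4, 1 member was called without the filter, with column totals, edgeR or DESeq2 (2 by limma). For the Mll2-KO interaction 2 were called with a pseudocount of 0.5 or no filter, and 5 with edgeR or DESeq2, which added Hoxd9 (4 by limma), and for the double-KO interaction 0 with a pseudocount of 5 (1 by limma). These Mll2-KO interaction counts include Hoxd3, which did not pass the filter at day 0. They also include Hoxd4 and, by edgeR or DESeq2, Hoxd9, which passed it only with the Mll2-KO libraries. Hoxd4 is also the member added in Mll2-KO against WT at day 0.

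Leaving out 1 library, the members called ranged from 0 to 2 in Mll1-KO and 0 to 1 in Mll2-KO against WT at day 0, 0 to 1 in double-KO against Mll1-KO at day 0, 1 to 3 in Mll1-KO against WT at day 4, 0 to 2 in double-KO against Mll2-KO at day 4, and 0 to 1 for non-additivity. They ranged from 0 to 2, 0 to 4 and 1 to 2 for the Mll1-KO, Mll2-KO and double-KO interactions. All genes called for non-additivity ranged from 1269 (without day 4 Mll2-KO replicate 2) to 2092.

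The values that changed sign were all uncalled. With column totals, Hoxd4 was -0.023 in Mll1-KO against WT at day 0 and -0.060 in double-KO against WT at day 4, where edgeR and DESeq2 gave -0.021 and -0.024. In double-KO against Mll2-KO at day 4 Hoxd8 was 0.020 with column totals, 0.040 with edgeR and 0.024 with DESeq2. Hoxd11 was -0.0022 for non-additivity with edgeR, -0.16 for the Mll1-KO interaction with a pseudocount of 0.5, and 0.22 and 0.28 for the double-KO interaction with edgeR and DESeq2.

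Leaving out 1 library at day 0, Hoxd4 ran from -0.26 to 0.40 in Mll1-KO against WT, Hoxd8 from -0.026 to 0.52 and Hoxd13 from -0.21 to 0.11 in Mll2-KO against WT, and Hoxd1 from -0.53 to 0.26 in double-KO against Mll2-KO. At day 4 Hoxd11 ran from -0.24 to 0.57 in Mll1-KO against WT, and Hoxd3 from -0.19 to 0.093 and Hoxd4 from -0.039 to 0.031 in double-KO against WT. In double-KO against Mll2-KO at day 4 Hoxd1 ran from -0.042 to 0.24, Hoxd8 from -0.17 to 0.12 and Hoxd11 from -0.018 to 0.30. For non-additivity Hoxd3 ran from -0.29 to 0.029 and Hoxd11 from -0.39 to 0.42. For the Mll1-KO interaction Hoxd11 ran from -0.97 to 0.77, and for the double-KO interaction Hoxd11 ran from -1.53 to 0.21 and Hoxd13 from -0.59 to 0.075.

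Column totals moved the median log2 difference of all genes by -0.109 in double-KO against Mll1-KO and -0.137 in Mll2-KO against Mll1-KO at day 4, by 0.122, 0.235 and 0.125 for day 4 against day 0 in double-KO, Mll1-KO and WT, and by 0.112 for the Mll1-KO interaction.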

Other observations

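The paralogs of the last and of an early HoxD gene in the other clusters gave the following values at day 4 (chosen after their values were seen). Among the genes of paralog group 13, which act at the tail end of the body axis and in the limb tips, Hoxd13, Hoxa13 and Hoxb13 fell in double-KO against WT cells, by 1.92, 2.03 and 1.92 on the log2 scale, whereas Hoxc13 rose by 0.87 (adjusted p from limma = 2.16e-06 for Hoxc13 and 3.48e-05 for Hoxa13). In Mll2-KO cells Hoxb13 (-1.62) and Hoxd13 (-1.13) fell, Hoxc13 rose (0.45), and Hoxa13 was not called (-0.28, adjusted p = 0.553). Hoxd13 and Hoxc13 were therefore called in opposite directions in both comparisons.

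Among the genes of paralog group 4, Hoxa4 (0.55), Hoxb4 (0.23), Hoxc4 (0.52) and Hoxd4 (0.46) all rose in Mll1-KO against WT cells at day 4. In double-KO cells Hoxa4 (0.51) and Hoxb4 (0.21) rose, Hoxc4 fell (-0.69), and Hoxd4 was not called (0.00081). In Mll2-KO cells Hoxa4 (-0.60) and Hoxc4 (-0.996) fell, and Hoxb4 (0.05) and Hoxd4 (-0.25) were not called.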
